A study of Mus musculus with 4 samples.

Results

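The subject here is the heat shock proteins and chaperones, 86 genes out of 19504 with a named row in the expression table. They were taken by gene symbol and not by any measured value: every symbol that begins with Hspa, Hspb, Hspd, Hspe, Hsph or Hsp90, the numbered members of Dnaja, Dnajb and Dnajc, Cct2 to Cct8 and like-named genes, Bag1 to Bag6, and Stip1 and Tcp1. By family these are 12 HSP70 genes, 1 HSP110 gene, 2 HSP90 genes, the HSP60 and HSP10 genes, 8 small heat shock proteins, 2 binding proteins (Hspbp1 and Hspbap1), 3 Dnaja, 12 Dnajb and 28 Dnajc genes, 9 CCT genes, 6 Bag genes and Stip1. Families follow the gene symbols, so that Hspa4 and Hspa4l, close relatives of Hsph1, are counted here as HSP70 genes. Hsf1, Hspa8, Hsp90ab1 and Dnaja1 were not analysed here.

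The study measured sorted mouse group 3 innate lymphoid cells (ILC3s) with 1 Affymetrix array for each of 4 genotypes: circZbtb20+/+, circZbtb20-/-, Nr4a1+/+ and Nr4a1-/-. ILC3s are lymphocytes of barrier tissues that lack rearranged antigen receptors. circZbtb20 is a circular RNA of the Zbtb20 gene, and Nr4a1 encodes an orphan nuclear receptor. The cells were gated as lineage negative, CD90 high and CD45 low. The wild type named for the same gene served as the comparison for each knockout. The sources used here do not state tissue, age, strain, the number of mice per array or the design of either deletion. With 1 array per genotype no replicate error exists and no main comparison has a p-value, so that every difference below is between arrays and not shown to be between genotypes. In such bulk samples fewer cells of a type and less RNA per cell cannot be told apart.

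Chaperones bind unfolded or partly folded protein chains and keep them from aggregating. HSP70 proteins cycle between loose and tight binding of a chain, driven by ATP. J proteins, encoded by the Dnaj genes, bring the chain and start hydrolysis, while nucleotide exchange factors such as the BAG and HSP110 proteins end the cycle. HSP90 finishes the folding of kinases and receptors, HSP60 with HSP10 forms a folding chamber in mitochondria, and the CCT ring folds actin and tubulin in the cytosol. Heat or damaged protein releases the factor HSF1, which binds heat shock elements in promoters. Unfolded protein in the endoplasmic reticulum acts through the sensors ATF6, IRE1 (gene Ern1) and PERK (gene Eif2ak3) instead. In lymphocytes, cell stimulation and the handling of tissue can also raise heat shock transcripts.

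The promoters of 5 members are shown because they carry the elements through which heat shock and endoplasmic reticulum stress act, and their genes differ in the values below. They were read from RefSeq (GRCm38.p6) in windows of 250 bases before to 50 after each start site, which were found for 72 of the 86 genes. Only bases before the start site are printed, 5′ to 3′ on the strand of the gene, and capitals mark the element. The heat shock element was searched on both strands as 3 units, GAA-TTC-GAA or TTC-GAA-TTC, with any 2 bases between neighbouring units, and these forms overlap within longer runs. It was found in the windows of 4 members, Hspd1, Hspe1, Hsph1 and Dnajb6, or 5.56% of those with a window, against 0.662% of all 27025 genes with windows. The endoplasmic reticulum stress element, searched on both strands as a motif of CCAAT and CCACG with 9 bases between, was found in 3 members, Hspa5, Hsp90b1 and Dnajc3, or 4.17%, against 0.137% of all genes. Hspe1 and Hspd1 lie head to head, and the Hspd1 window reads the same element, chr1:55088059-55088076, on the other strand. The element of Hsph1 lies after its start site and is not printed.
Hspe1, chr1:55087998-55088147, plus strand: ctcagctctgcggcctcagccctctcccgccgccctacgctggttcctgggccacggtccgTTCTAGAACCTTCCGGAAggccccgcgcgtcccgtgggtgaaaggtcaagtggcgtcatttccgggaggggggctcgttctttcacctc
Dnajb6, chr5:29735748-29735897, plus strand: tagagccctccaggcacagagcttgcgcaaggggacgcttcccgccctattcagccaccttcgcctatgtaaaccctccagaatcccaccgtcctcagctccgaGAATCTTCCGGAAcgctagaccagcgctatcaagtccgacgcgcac
Hspa5, chr2:34771940-34772089, plus strand: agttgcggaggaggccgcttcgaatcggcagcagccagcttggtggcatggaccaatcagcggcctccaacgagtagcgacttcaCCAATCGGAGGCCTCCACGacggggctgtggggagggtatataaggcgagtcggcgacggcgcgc
Hsp90b1, chr10:86705445-86705666, minus strand: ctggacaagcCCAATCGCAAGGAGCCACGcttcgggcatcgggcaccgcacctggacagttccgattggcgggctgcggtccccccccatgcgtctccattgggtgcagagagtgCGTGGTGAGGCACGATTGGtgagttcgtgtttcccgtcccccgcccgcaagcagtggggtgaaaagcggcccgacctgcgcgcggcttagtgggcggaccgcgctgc
Dnajc3, chr14:118937782-118937931, plus strand: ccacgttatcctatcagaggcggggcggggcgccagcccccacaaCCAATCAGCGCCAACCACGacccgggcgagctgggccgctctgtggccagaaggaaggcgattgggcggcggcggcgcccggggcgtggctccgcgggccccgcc

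The inducible HSP70 genes Hspa1a and Hspa1b hold no element of 3 units in this window. A shorter form of 2 units, GAANNTTC or TTCNNGAA on both strands, was searched after values were seen. It is also part of each longer element. It was found in 19 members, or 26.4%, against 17.0% of all genes. The window of Hspa1b is shown because this gene spanned the greatest range of all members over the arrays. It shares 296 of 300 positions with that of Hspa1a, and in both the shorter form lies at -104 to -97 from the start site.
Hspa1b, chr17:34959239-34959388, minus strand: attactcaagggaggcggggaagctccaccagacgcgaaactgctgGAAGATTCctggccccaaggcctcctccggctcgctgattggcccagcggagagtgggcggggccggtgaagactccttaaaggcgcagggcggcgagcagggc

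The members covered most of the range of the arrays. Values are the deposited log2 values, whose array medians lay between 4.34 and 4.51 and whose ceiling of 19.93 no member reached. Whether values with such a ceiling keep the usual scale of RMA is not known, so a log2 difference of 1 is a 2-fold difference only if they do. Of the 86 genes, 53 were at or above the array median on all 4 arrays and 17 on none, so 69 passed on at least 1. Hspb9, Cct7, Dnajb3, Dnajc5b and Dnajb13, for example, stayed below the median on every array, and differences between such low values are poorly measured. Since rows differ in their probes, levels are compared only within a gene. A gene is counted as higher or lower when its log2 difference was at least 1 in size, a 2-fold difference, and its larger value was no lower than the median of the array it came from. Differences are signed, and where a gene is called lower at a negative value, that value is the log2 difference. Of the members, 30 were counted in none of the 3 comparisons, and 24 varied by less than 1 over the 4 arrays. The 30 are Bag2, Bag4, Cct6b, Cct7, Cct8l1, Dnaja3, Dnajb3, Dnajb7, Dnajb8, Dnajb13, Hspa1l, Hspa12a, Hspa12b, 6 of the 8 small heat shock proteins, and Dnajc4, Dnajc5b, Dnajc5g, Dnajc10, Dnajc16, Dnajc18, Dnajc21, Dnajc22, Dnajc24, Dnajc25 and Dnajc28.

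Markers on the array labelled Nr4a1 knockout went against the labelled cell type. All 15 measured T cell and thymocyte markers were higher there, and their mean log2 level was 15.00 against 5.05 to 5.68 on the other arrays. ILC3 markers had a mean level of 7.45 there against 14.34 to 14.73, and 11 of 12 were lower than in the paired wild type. Kit and Il23r were at 5.48 and 4.73, whereas the ILC3 cytokine gene Il22 was at the ceiling of 19.93, as in both wild types, and Id2 and Il7r were at 15.48 and 13.40. Pancreatic acinar markers had a mean level of 10.65 and 7.91 in the circZbtb20 and Nr4a1 wild types, and of 4.63 and 4.08 in the respective knockouts. Epithelial markers had a mean level of 7.41 in the Nr4a1 wild type and of 4.43 to 5.73 elsewhere. The targeted Nr4a1 was at 11.63 in its knockout and at 18.11 in the paired wild type, while circZbtb20 itself was not analysed here. The part of these marker shifts in the results below was not tested.

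Between the wild types, neither of which carries a deletion, heat-inducible chaperones were higher on the Nr4a1 wild-type array. Of 10 measured genes of the inducible list, 8 were higher and 0 lower, and the median log2 difference was 2.55, against a median of 0.03 over all genes. Hspa1b differed by 4.78, Dnajb1 by 3.93, Hspa1a by 2.95 and Hsp90aa1 by 2.69. Hspd1, Hspe1 and Hsph1 differed by 2.65, 2.45 and 2.26, and the small heat shock protein gene Hspb1 by 1.23. Stip1 at 0.78 and Bag3 at 0.54 lay in the same direction but under the 2-fold size. That heat shock genes differ between the wild types was known from earlier results when the list was written, so its direction is not independent evidence.

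Over all 86 members, 13 were higher and 2 lower in the Nr4a1 wild type than in the circZbtb20 wild type. The background is 4.65% of all genes higher and 3.71% lower, while the members' shares were 15.1% and 2.33%. Among genes with a mean over the 4 arrays of at least 6, 9.36% were higher and 6.77% lower, against 12 and 1 of 46 members at that level. The median over all members was 0.10. Beside the inducible genes, Dnaja4 was higher by 1.85, Dnajb4 by 1.36, Hspa2 by 1.33, Hspbp1 by 1.05 and Dnajc5 by 1.02 (0.99 after cyclic loess normalization, under the 2-fold size). The mitochondrial HSP70 gene Hspa9 was lower at -1.48 and Dnajb11, a J protein of the endoplasmic reticulum, at -1.13. Of 12 immediate-early genes, which also respond to handling, 4 were higher and 1 lower on the same array (median 0.49). The lower one was Nr4a1 itself, at -1.82. There epithelial markers were higher in 5 of 6 and acinar markers lower in 13 of 14. The part of these in the result was not tested.

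**Figure D1:**
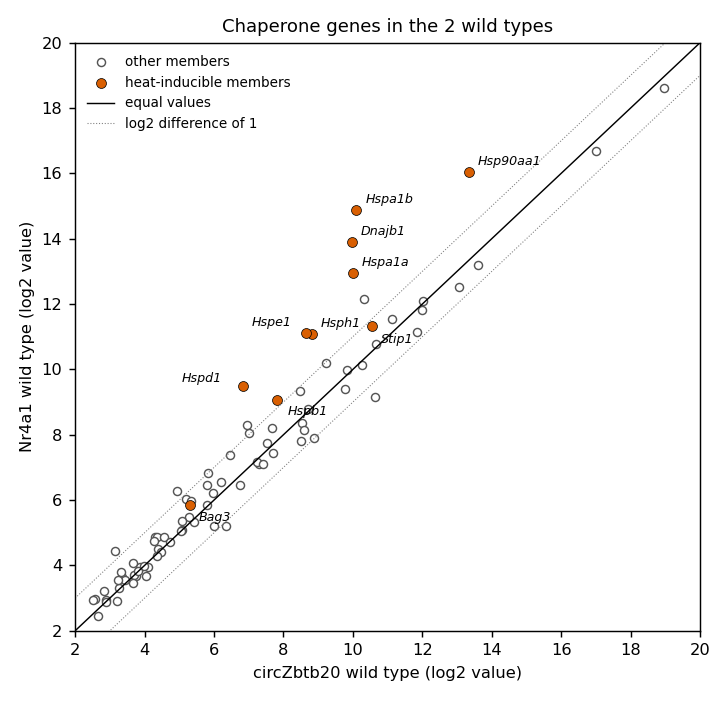
Log2 values of the 86 chaperone genes in the circZbtb20 wild type (x axis) and the Nr4a1 wild type (y axis), 1 array each, with the heat-inducible list filled and named and dotted lines at a log2 difference of 1. All 10 filled points lie above the line of equal values and 8 of them above the upper dotted line, with Hspa1b farthest at 4.78.

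In the circZbtb20 knockout chaperones differed in both directions. Stip1, Dnajb1, Hsp90aa1 and Hsph1, of the cytosolic HSP70 and HSP90 machinery, were higher than in the paired wild type by 6.71, 5.02, 4.80 and 4.61. Hspa5 and Hsp90b1, the main chaperones of the endoplasmic reticulum, were lower at -3.23 and -1.46, and the CCT subunit gene Cct4 at -3.17. Hspa1a differed by -0.27 and Hspa1b, lower at -1.34, did not follow the other inducible genes. In all, 18 members were higher and 12 lower, or 20.9% and 14.0%, against a background of 15.6% and 11.1% over all genes. At a mean level of at least 6 the background was 33.9% higher and 21.2% lower. Of the 46 members at that level 17 and 9 were counted, or 37.0% and 19.6%, near those shares. The members' median was 0.21, beside 0.04 over all genes. Of 12 immediate-early genes 3 were higher and 7 lower on this array, of 12 ILC3 markers 5 were higher and 5 lower, and acinar markers were lower in 13 of 14. Their part in these values was not tested.

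Because the wild types differed for inducible genes, each gene was also set against the Nr4a1 wild type. Against that array 15 members were higher and 16 lower, beside a background of 15.1% and 12.0% of all genes. Both comparisons use the same knockout array, so they are not independent. The difference of Hspe1 was 1.96 from its own wild type and -0.49 from the other, and that of Hspa9 was -1.06 and 0.42. Dnajb1 was higher by only 1.09, while Stip1 was higher by 5.93, Hsph1 by 2.35 and Hsp90aa1 by 2.11. Against its own wild type 5 genes of the inducible list were higher and 2 lower (median 1.26), and against the other 4 were higher and 4 lower (median -0.66). The sign of the list's median thus turned with the wild type used.

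**Figure D2:**
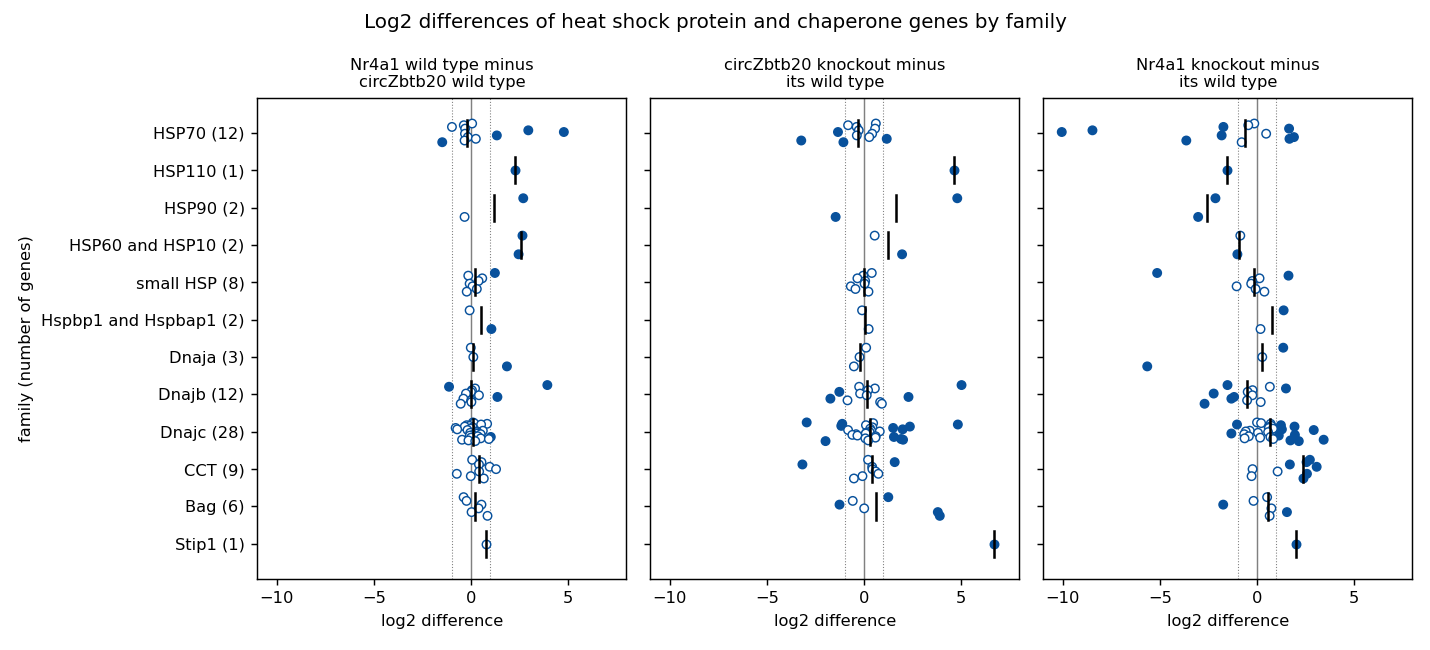
Log2 differences (x axis) of the 86 genes by family (y axis, with the number of genes) between the wild types and in each knockout against its wild type; filled points passed the rule of size, bars are family medians and dotted lines mark a difference of 1. The CCT family has its median at 2.39 in the Nr4a1 knockout and at 0.42 in both other panels (0.00 for the circZbtb20 knockout after quantile normalization), and HSP70 reaches from -10.05 to 1.90 in the Nr4a1 knockout.

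On the array labelled Nr4a1 knockout, inducible HSP70 genes were far lower and the CCT ring was higher. Hspa1b was lower at -10.05, Hspa1a at -8.47, Dnaja4 at -5.65 and Hspb1 at -5.14. Hspa5 was lower at -3.64 and Hsp90b1 at -3.03. CCT genes were higher in 6 of 9 cases, by 1.69 to 3.07, beside 18.3% of all genes. Dnajc7 was higher by 3.43 and Dnajc2 by 2.92. Of 10 measured genes of the inducible list, 1 was higher and 8 lower (median -1.64), beside 18.3% and 11.9% of all genes. Against the circZbtb20 wild type 4 were higher and 4 lower (median 0.635), beside 18.8% and 11.7%. The sign of the list's median turned here too with the wild type used. These values come from the array on which T cell markers were higher in 15 of 15 and ILC3 markers lower in 11 of 12. Of 12 immediate-early genes 1 was higher and 10 lower there, with a median of -5.97. The deleted gene Nr4a1 is itself in that list, lower at -6.48.

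Over all members, 24 were higher and 19 lower in the Nr4a1 knockout, or 27.9% and 22.1%, against 18.3% and 11.9% over all genes. At a mean level of at least 6 the background was 38.3% and 22.7%, beside 19 and 15 of 46 members, or 41.3% and 32.6%. The median over the members was 0.17, beside 0.00 over all genes. Against the circZbtb20 wild type 32 members were higher and 12 lower, beside 18.8% and 11.7% of all genes. Dnajb1, Dnajb4, Hsp90aa1, Hspe1 and Hsph1 had the opposite sign there. Both comparisons use the same knockout array, and they differ from each other by the difference between the wild types.

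P-values could be had only by pooling the wild types into 1 group, so that the error rests on the difference between those arrays. In the Nr4a1 knockout limma called 14 of the 86 members at an adjusted p under 0.05, 9 higher and 5 lower, against 11.2% of all genes. The higher ones were Cct2, Cct3, Cct5, Tcp1, Dnajc2, Dnajc3, Dnajc7, Dnajc9 and Hspa4, and the lower ones Hspa5, Hsp90b1, Dnajb2, Dnajb9 and Hspb1. The lowest adjusted p was 0.0228 for Hspa5. Hspa1a and Hspa1b, which differed between the wild types, were not among them. At an unadjusted p under 0.05 limma gave 24 higher and 13 lower members there, against 27.4% of all genes. In the circZbtb20 knockout limma called 0 members at its adjusted p (the lowest was 0.0511), and 24.0% of all genes and 24 members, 13 higher and 11 lower, at an unadjusted p under 0.05.

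Among HSP70 genes the cytosolic inducible copies had the widest range. Values for each gene are given in the order circZbtb20 wild type, circZbtb20 knockout, Nr4a1 wild type, Nr4a1 knockout. Hspa1b was at 10.10, 8.76, 14.88 and 4.83. Hspa1a was at 9.99, 9.72, 12.94 and 4.47. Both were thus highest in the Nr4a1 wild type and near the array median in the Nr4a1 knockout, where they remained lower at -5.27 and -5.52 against the other wild type. The genes are near-identical copies, so probes may not separate them and the values may not be separate measurements. Only their promoter windows were compared here, and no transcript or probe sequences. Their relative Hspa1l, a testis gene, stayed between 2.90 and 3.63, Hspa12a between 3.18 and 3.87 and Hspa12b between 3.22 and 4.04, all below the median of every array.

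The constitutive HSP70 relatives that act as exchange factors went the other way in the Nr4a1 knockout. Hspa4 was at 11.99, 12.26, 11.83 and 13.73, a difference of 1.90 for that knockout. Hspa4l was at 5.97, 7.14, 6.22 and 7.89, with differences of 1.17 and 1.67 in the knockouts. The difference in the circZbtb20 knockout was under the 2-fold size after quantile (0.99) and cyclic loess (0.88) normalization and against the other wild type (0.92). The exchange factor Hsph1, itself heat-inducible, was at 8.82, 13.43, 11.08 and 9.54. Like Dnajb1, Hsp90aa1 and Stip1 it was highest in the circZbtb20 knockout and lowest in the circZbtb20 wild type, unlike Hspa1a and Hspa1b. Hspa14, which works at the ribosome with the J protein Dnajc2, was at 6.76, 7.33, 6.46 and 8.11, and Dnajc2 was at 8.53, 7.71, 8.35 and 11.27. Both partners were thus higher in the Nr4a1 knockout, by 1.65 and 2.92. Hspa2, abundant in testis, was at 4.94, 4.57, 6.27 and 4.45.

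The inducible HSP90 and its link to HSP70 were highest in the circZbtb20 knockout. Hsp90aa1, the inducible cytosolic HSP90, was at 13.34, 18.14, 16.03 and 13.89. Stip1, which hands clients from HSP70 to HSP90, was at 10.54, 17.25, 11.32 and 13.35. The wild types were 0.78 apart for Stip1, so that it was higher in both knockouts against either wild type, by at least 2.03. Hsp90aa1 in the Nr4a1 knockout lay between the wild types, lower at -2.14 against its own and at 0.55 against the other.

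Other cofactors of HSP70 and HSP90 were more often lower than higher in the circZbtb20 knockout. Of 16 measured genes 3 were higher and 8 lower there (median -0.56), while the Nr4a1 knockout had 7 and 1 (median 0.77). Shares over all genes were 15.6% and 11.1%, and 18.3% and 11.9%. After quantile normalization the Nr4a1 knockout had 7 and 3 (median 0.43) and after cyclic loess 5 and 3 (median 0.34). In the circZbtb20 knockout Unc45a, a myosin chaperone, was lower at -3.53, Fkbp4, an immunophilin of steroid receptor complexes, at -2.65 and its relative Fkbp5 at -2.27, while Ahsa2 was higher by 2.40. In the Nr4a1 knockout Fkbp5, which glucocorticoids induce, was higher by 5.71, Chordc1 by 3.27, Fkbp4 by 2.27 and Pih1d1 by 2.0. Fkbp4 and Fkbp5 thus stood on opposite sides in the knockouts.

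**Figure D3:**
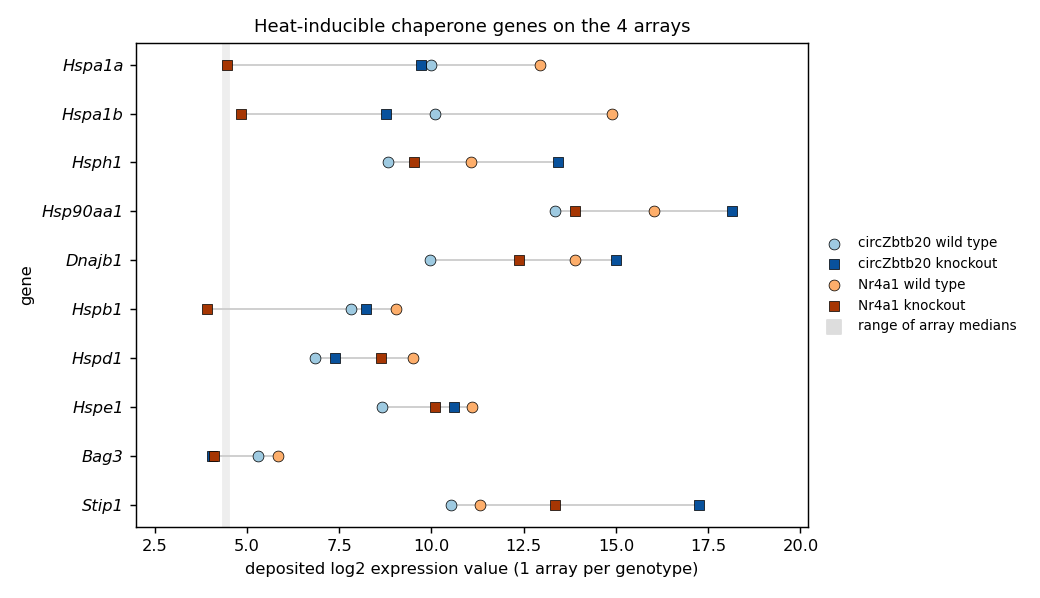
Deposited log2 values (x axis) of the 10 measured heat-inducible genes (y axis) on the 4 arrays, with circles for wild types, squares for knockouts and a grey band for the range of array medians. Hspa1a, Hspa1b and Hspb1 have their lowest values, 3.91 to 4.83, in the Nr4a1 knockout, while Stip1, Hsp90aa1, Hsph1 and Dnajb1 have their highest, 13.43 to 18.14, in the circZbtb20 knockout.

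J proteins were the largest group, with 43 genes in the Dnaja, Dnajb and Dnajc families. Dnajb1, the main heat-inducible partner of HSP70, was at 9.97, 14.99, 13.90 and 12.38. The low value is that of the circZbtb20 wild type, and the other 3 arrays lay above it by 2.41 or more. Its relative Dnajb4 was at 6.95, 9.24, 8.31 and 7.13, the same order of arrays. Dnaja4 was at 10.32, 9.80, 12.17 and 6.52, like Hspa1b highest in the Nr4a1 wild type and lowest in the Nr4a1 knockout. Dnaja2 and the mitochondrial Dnaja3 were near the array medians, with Dnaja2 higher by 1.35 in the Nr4a1 knockout.

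Dnajb6, which holds back aggregation and carries a heat shock element in its promoter, was lower in both knockouts. It was at 13.59 and 11.86 in the circZbtb20 pair and at 13.20 and 11.88 in the Nr4a1 pair, differences of -1.73 and -1.32. The wild types were -0.39 apart, less than either. Dnajb2 was at 7.69, 7.49, 7.43 and 5.20, lower at -2.23 in the Nr4a1 knockout. Dnajb12 and Dnajb14, both J proteins in the membrane of the endoplasmic reticulum, were counted once each, Dnajb12 with a difference of 1.49 in the Nr4a1 knockout and Dnajb14 with one of -1.27 in the circZbtb20 knockout.

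The 28 Dnajc genes gave 7 higher and 4 lower in the circZbtb20 knockout (median 0.31), or 25% and 14.3% beside 15.6% and 11.1% of all genes, and 7 and 6 after either normalization. In the Nr4a1 knockout they gave 9 higher and 2 lower (median 0.65), or 32.1% and 7.14% beside 18.3% and 11.9%. Quantile normalization made this 7 and 1 (median 0.41), and cyclic loess 7 and 2 (median 0.24). In both knockouts more genes were higher than lower over the whole table too. The wild types gave 1 higher, 0 lower and a median of 0.10. Dnajc7, which holds both HSP70 and HSP90, was at 8.60, 10.61, 8.14 and 11.57, higher in both knockouts by 2.01 and 3.43. Dnajc12, a partner of the aromatic amino acid hydroxylases, was near the median on 3 arrays and at 9.18 in the circZbtb20 knockout, a difference of 4.83. Dnajc9, which also chaperones histones, was at 7.54, 5.56, 7.76 and 9.91. It was lower at -1.98 in the circZbtb20 knockout and higher by 2.15 in the Nr4a1 knockout. Dnajc8, a partner of splicing proteins, was higher by 1.72 and Dnajc13, of endosomes, by 1.23 in the Nr4a1 knockout. Dnajc6, which uncoats clathrin vesicles, was at 6.46, 8.37, 7.38 and 8.21, and Dnajc5, a J protein of secretory vesicles, at 5.82, 7.36, 6.84 and 7.53, each higher than its own wild type in the circZbtb20 knockout. Of the remaining counted genes, the differences were 1.5 for Dnajc17, -1.17 for Dnajc14 and -1.12 for Dnajc11 in the circZbtb20 knockout, and 1.12 for Dnajc30 and -1.32 for Dnajc27 in the Nr4a1 knockout.

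All 7 measured subunits of the CCT ring had their highest value in the Nr4a1 knockout. This set leaves out Cct6b and Cct8l1 of the 9 CCT genes, a choice made after values were seen. Cct2 was at 12.02, 12.23, 12.08 and 14.80. Cct5 was at 9.23, 9.65, 10.19 and 13.26, and Cct8 at 11.86, 12.60, 11.13 and 13.70. In each of these 3 the Nr4a1 knockout stood above the other arrays. Those arrays also differed for Cct8, which was 1.47 higher in the circZbtb20 knockout than in the Nr4a1 wild type. Cct3 was higher by 2.55, Tcp1, which encodes the first subunit of the ring, by 2.39 and Cct4 by 1.69. Cct7 was below the array median everywhere, at 2.52 to 4.0, and was not counted although it differed by 1.06. Over all 9 CCT genes the count was 6 higher, or 66.7%, and 0 lower, beside 18.3% and 11.9% of all genes. Among genes with a mean level of at least 6 the background was 38.3% and 22.7%. The median over the 9 CCT genes was 2.39. Quantile and cyclic loess normalization also gave counts of 6 and 0, with medians of 2.0 and 1.90. Set against the circZbtb20 wild type the counts were again 6 and 0, and the median was 2.10. The remaining Cct6b, a testis form, and Cct8l1 differed by -0.23 and -0.28.

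In the circZbtb20 knockout the members of the ring differed among themselves. Cct4 was at 11.14 in the wild type and 7.97 in the knockout, lower at -3.17, and Cct3 was higher by 1.58. The other CCT genes differed by -0.52 to 0.74 and were not counted. The median over the 7 ring subunits was 0.42 in the deposited values, -0.09 after quantile and -0.05 after cyclic loess normalization. Between the wild types 0 CCT genes were higher and 0 lower. Cct4 had its lowest value in the circZbtb20 knockout and its highest, 13.24, in the Nr4a1 knockout.

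Prefoldin delivers actin and tubulin chains to the ring. The list held 9 genes, prefoldin subunits together with Pdcl, Pdcl3 and Txndc9. The circZbtb20 knockout had 4 higher and 3 lower, and the Nr4a1 knockout 5 and 1. The Nr4a1 wild type had 0 and 2 against the other wild type. In that order, all genes gave 15.6% and 11.1%, 18.3% and 11.9%, and 4.65% and 3.71%. Genes other than subunits were counted in the circZbtb20 knockout, Pdcl3 at 2.5, Pdcl at -1.71 and Txndc9 at -1.15. In the Nr4a1 knockout Txndc9 was counted at 1.37. For the Nr4a1 knockout the counts became 3 and 1 after quantile and 2 and 1 after cyclic loess normalization, and between the wild types 0 and 5 and 0 and 3. Pfdn5 was at 10.26, 13.82, 9.47 and 9.26, higher by 3.56 in the circZbtb20 knockout, where Pfdn2 was higher by 2.62 and Pfdn4 by 2.61. Pfdn6 was higher by 2.51 in the Nr4a1 knockout. Against the circZbtb20 wild type only 1 of the 9 was higher in the Nr4a1 knockout and 2 were lower. The count for this list there thus rests on the wild type used.

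**Figure D4:**
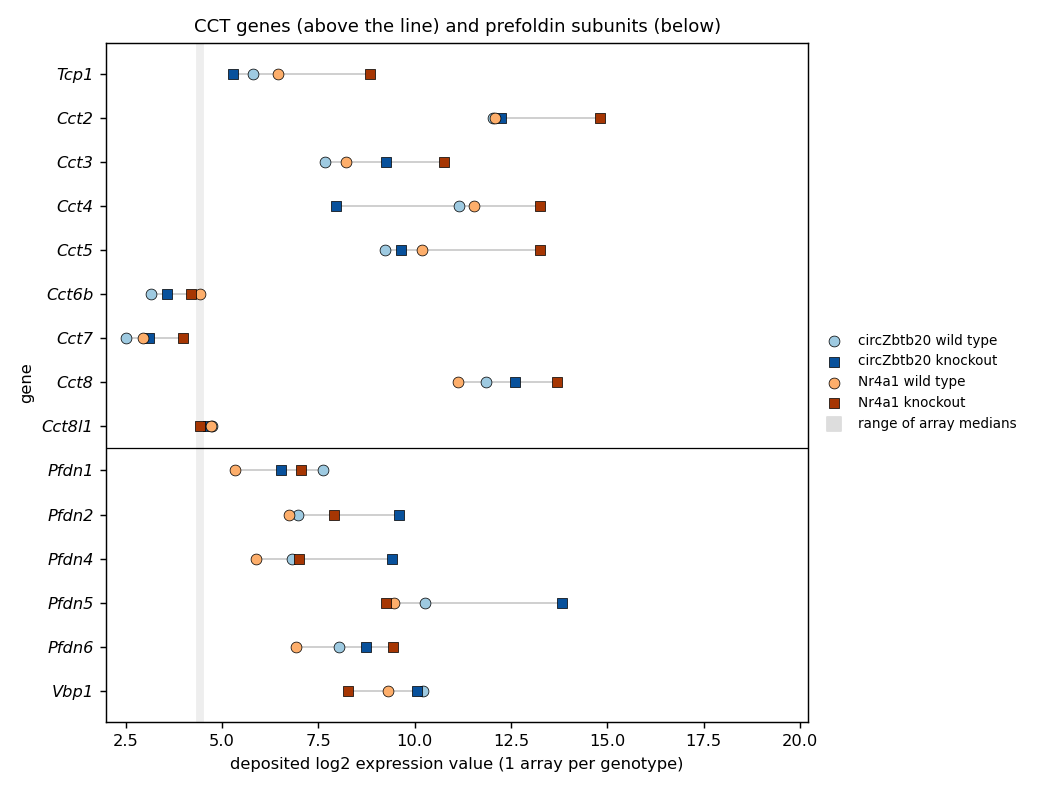
Deposited log2 values (x axis) of the 9 CCT genes and 6 prefoldin subunits (y axis) on the 4 arrays, with circles for wild types, squares for knockouts and a grey band for the range of array medians. The Nr4a1 knockout holds the highest value in 7 of the CCT genes, from Cct7 at 4.0, below the grey band, to Cct2 at 14.80, and in 1 of the prefoldin subunits, Pfdn6 at 9.43.

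Chaperones of the endoplasmic reticulum were lower in both knockouts for the main HSP70 and HSP90 of that compartment. Hspa5, which encodes BiP, was at 18.95, 15.72, 18.62 and 14.98. Hsp90b1, which encodes GRP94, was at 17.01, 15.55, 16.68 and 13.65. The wild types were -0.33 apart for both genes, and each knockout lay below both wild types. Both promoters carry the stress element printed above. Dnajc3, whose promoter carries it too, was instead at 10.68, 10.08, 10.77 and 12.72, higher by 1.95 in the Nr4a1 knockout.

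The other members of that compartment had no common direction. The list used here held 8 genes, Hspa5 and Hsp90b1 included, and left out Dnajb12 and Dnajb14, whose values are given above. Of these 8 the circZbtb20 knockout had 0 higher and 3 lower (median -0.49). The Nr4a1 knockout had 1 and 4 (median -0.87). Over all genes the shares were 15.6% and 11.1%, and 18.3% and 11.9%. Hspa5 and Hsp90b1 were among the lower genes in both knockouts. Dnajb9, which helps clear misfolded proteins, was at 13.06, 13.98, 12.53 and 9.83, lower at -2.70 in the Nr4a1 knockout. Hspa13 was lower there at -1.73. Dnajc1, a J protein that binds ribosomes, was at 8.70, 5.75, 8.80 and 8.80, lower at -2.95 in the circZbtb20 knockout and equal on the remaining arrays to within 0.10. Dnajc10, a reductase, stayed between 9.82 and 10.29. Acinar cells make much of these chaperones, and acinar markers were lower in 13 of 14 in the circZbtb20 knockout and in 12 of 14 in the Nr4a1 knockout. Their part in the values of Hspa5 and Hsp90b1 was not tested. Between the wild types acinar markers were lower in 13 of 14 with a median of -2.48, while Hspa5 and Hsp90b1 each differed by -0.33. Markers of B cells and of plasma cells, the latter another secretory type, had mean levels of 6.94, 6.02, 7.80 and 5.0 on the arrays. Within that list Jchain was at 16.12, 11.29, 19.08 and 9.94, and Sdc1 at 10.87, 9.95, 10.85 and 4.90. Mzb1 was at 5.28, 4.77, 5.59 and 4.76. Macrophage markers had mean levels of 6.59, 5.29, 7.81 and 5.64. The part of these markers in the values above was not tested.

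Genes of the wider unfolded protein response differed between the knockouts in their counts, a difference that was not tested. Of 21 measured genes the circZbtb20 knockout had 6 higher and 7 lower, with a median of 0.18 that turned to -0.06 after quantile and -0.05 after cyclic loess normalization. The Nr4a1 knockout had 1 higher and 8 lower (median -0.59). All genes gave 15.6% higher and 11.1% lower for circZbtb20, and 18.3% and 11.9% for Nr4a1. At a mean level of at least 6 these shares were 33.9% and 21.2%, and 38.3% and 22.7%. Atf6, a sensor that drives Hspa5, was at 12.83, 16.36, 12.21 and 8.89. Ern1 was at 12.60, 12.98, 14.11 and 5.64, lower at -8.47 in the Nr4a1 knockout, as were Herpud1 at -3.93 and Ppp1r15a at -3.91. In the circZbtb20 knockout, by contrast, Atf6 was higher by 3.53 and Ppp1r15a by 2.56, while the folding lectin gene Calr was lower at -2.67 and P4hb, a disulfide isomerase gene, was higher by 2.53. Hspa5 lay below both wild types on both knockout arrays. Atf6 lay above them on the circZbtb20 knockout array and below them on the Nr4a1 knockout array. The part of Atf6 in the values of Hspa5 was not tested.

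**Figure D5:**
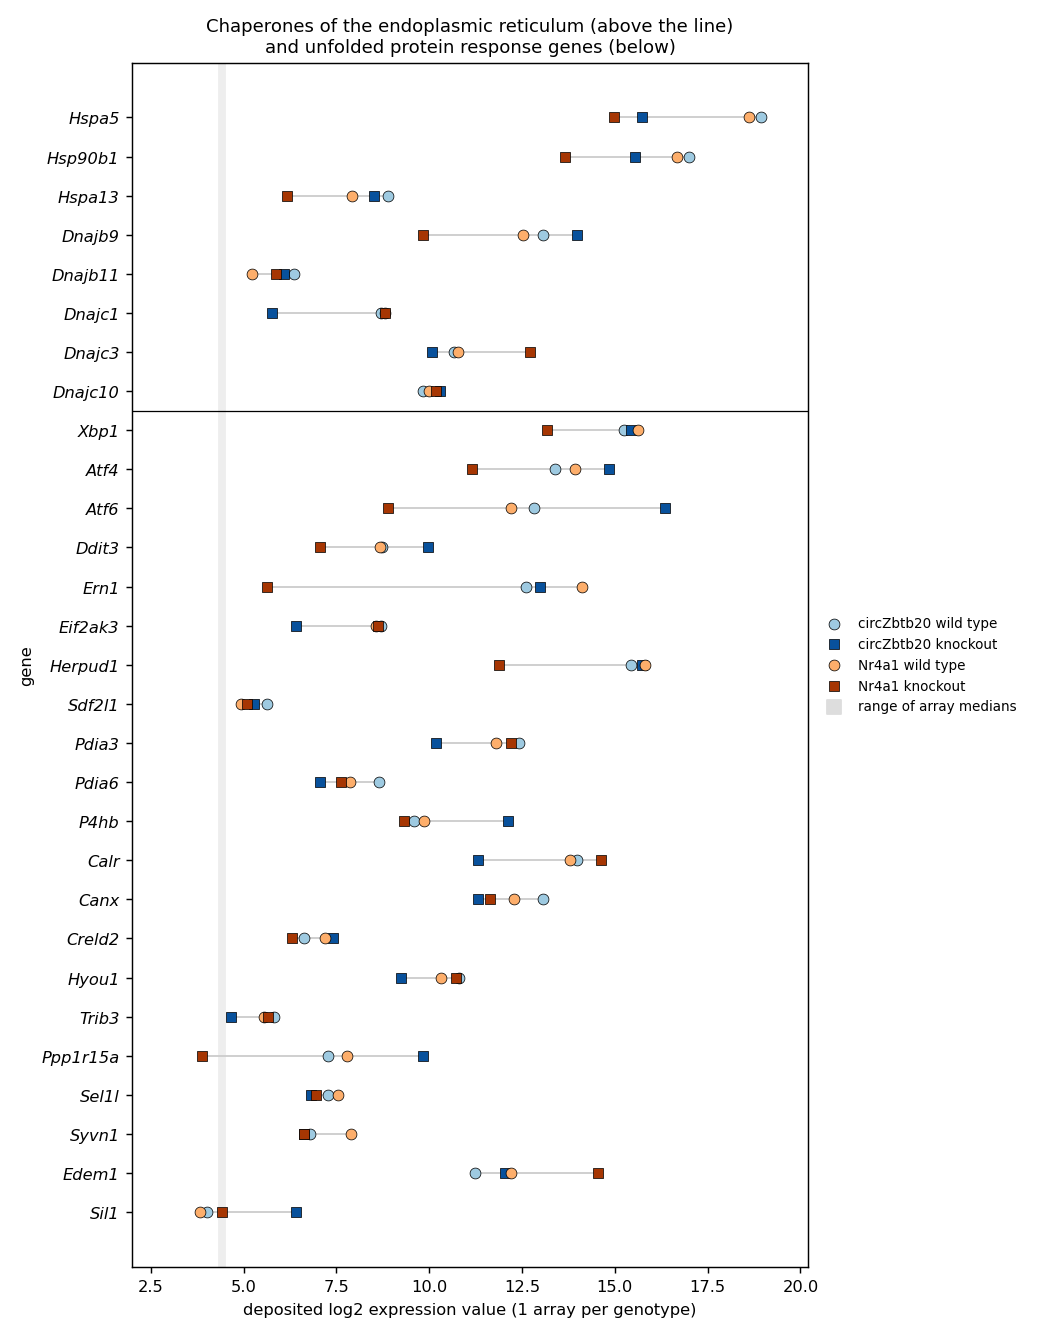
Deposited log2 values (x axis) of 8 chaperones of the endoplasmic reticulum and 21 unfolded protein response genes (y axis) on the 4 arrays, with circles for wild types, squares for knockouts and a grey band for the range of array medians. Both squares of Hspa5, at 15.72 and 14.98, lie left of both circles, whereas Atf6 has its knockouts on opposite sides, at 16.36 and 8.89.

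Mitochondrial chaperones shared no common pattern. Hspd1 (HSP60) was at 6.85, 7.40, 9.50 and 8.64. Hspe1 (HSP10), its partner across the shared promoter, was at 8.65, 10.61, 11.10 and 10.09. In both genes the circZbtb20 wild type was lowest and the Nr4a1 wild type highest, with the knockouts between. Hspa9, the mitochondrial HSP70, was at 10.63, 9.57, 9.15 and 8.36, with a different order.

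Dnajc15 and Dnajc19 are J proteins of the import motor. Dnajc15 was at 7.41, 9.77, 7.09 and 9.02, higher by 2.36 and 1.93, and Dnajc19 was at 8.51, 10.50, 7.80 and 9.08, higher by 1.99 and 1.28. Against the circZbtb20 wild type, Dnajc19 in the Nr4a1 knockout was only 0.57 higher, and after quantile and cyclic loess normalization its difference from its own wild type was 0.83 and 0.73. Of 8 mitochondrial members in all, the circZbtb20 knockout had 3 higher and 2 lower, and the Nr4a1 knockout 3 and 1, which turned to 2 and 3 after either normalization. All genes gave 15.6% and 11.1%, and 18.3% and 11.9%. A further list of 9 mitochondrial chaperones and proteases gave 4 higher and 3 lower for circZbtb20. Grpel1, the exchange factor of Hspa9, was higher in the circZbtb20 knockout by 4.24 and the J protein gene Hscb by 3.70, while the protease gene Lonp1 was lower at -2.03. In the Nr4a1 knockout 2 of the 9 were higher, Clpb by 1.68 and Clpx by 1.33, and 0 lower.

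BAG proteins, which bind the ATPase part of HSP70, were divided. Bag6, which guards tail-anchored and misplaced membrane proteins, was at 8.49, 12.39, 9.34 and 9.99, and Bag5 was at 5.81, 9.61, 5.84 and 7.38. Both were highest in the circZbtb20 knockout, with differences of 3.90 and 3.80 from its own wild type and of 3.05 and 3.77 from the other. Bag1 differed there by 1.25, but by 0.67 after quantile and 0.76 after cyclic loess normalization, under the 2-fold size. Bag5 in the Nr4a1 knockout, at a difference of 1.54, was likewise under that size after cyclic loess, at 0.97. Bag3, the heat-inducible member, was at 5.31, 4.05, 5.85 and 4.11, lower in the knockouts at -1.26 and -1.74 and below the array median in both. Bag2 and Bag4 were low and were not counted in any comparison.

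Among small heat shock proteins only Hspb1 and Hspb11 were counted. Hspb1 (HSP27 in human cells, HSP25 in mouse), which binds unfolding proteins without ATP, was at 7.82, 8.22, 9.05 and 3.91, below the array median in the Nr4a1 knockout alone. It was lower there at -5.14, or at -3.91 if set against the circZbtb20 wild type. Hspb11, which serves in transport within cilia, was higher by 1.62, as was the binding protein gene Hspbap1 by 1.37. Of other heat shock factors and regulators, Hsf2 was higher by 1.09 between the wild types and Hsbp1, a small protein that binds HSF1, was higher in the circZbtb20 and Nr4a1 knockouts by 1.68 and 1.29.

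Several members were counted in both knockouts against their own wild types, comparisons that share no array. Bag5, Cct3, Dnajc7, Dnajc15, Dnajc19, Hspa4l and Stip1, 7 genes, were higher in both, or 8.14% of the members beside 5.25% of all genes. Their calls depended on the scaling for Hspa4l, Bag5 and Dnajc19, as given above. Bag3, Dnajb6, Hsp90b1, Hspa1b and Hspa5, 5 genes, were lower in both, or 5.81% beside 3.26%. A further 6, Dnajb1, Dnajb4, Dnajc12, Hsp90aa1, Hspe1 and Hsph1, were higher in the circZbtb20 knockout and lower in the Nr4a1 knockout, or 6.98% beside 2.93%. Of these 6, all but Dnajc12 were also higher in the Nr4a1 wild type than in the circZbtb20 wild type, by 1.36 to 3.93. Cct4 and Dnajc9 were lower in the circZbtb20 knockout and higher in the Nr4a1 knockout, or 2.33% beside 2.96%.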

How the data were processed

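Biotin-labelled cDNA from Trizol-extracted RNA was put on 1 array per genotype, per the labels' protocols. The deposited values are log2 expression values that the authors made with Affymetrix Power Tools and RMA, per the submitters' processing notes. For their versions and the genome build, not given in the sources used here, nothing was assumed. The log2 scale was taken from RMA and the range of the values. Between 3 and 25 rows per array share the ceiling of 19.93, and whether the usual RMA scale was kept is not known. The design text names another Affymetrix mouse array than the probe table that names the rows. Of 22205 rows 19571 had 1 symbol, 0 had several and 2634 had none, and for 55 genes with several rows, none of them members, the row with the highest mean was used.

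Members and lists were chosen with earlier results of these data known. Named were all genes of the small families, up to 4 per comparison of the Dnajb, Dnajc and small heat shock families by size of difference, listed genes, and up to 4 per further list. Differences, counts and medians were computed with pandas 2.3.3. limma 3.58.1 made the alternatives (quantile and cyclic loess normalization, both wild types as 1 group), with Benjamini-Hochberg adjustment over 19504 genes, and was tested on simulated data. The simulated data had the same error for every gene, so that test does not show how the fit behaves on these arrays. Further alternatives were the other wild type, the mean of both, a log2 difference of 2, no filter on low values and the mean of the rows of a gene. The number of arrays limits the precision.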

Additional observations from a re-analysis of the deposited data

How the results depend on the processing

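Counts and medians below are over the 86 members. No paired analysis was possible because each group has 1 array. Quantile and cyclic loess normalization kept every count within 1.5 times, and the mean of the rows of a gene changed none of them. In the circZbtb20 knockout the median of 0.21 became 0.064 and 0.059 after these, 0.10 against the other wild type, 0.087 against the mean of both, and 0.445 for members with a mean level of at least 6. In the Nr4a1 knockout the median of 0.17 became 0.38 against the other wild type, 0.28 against the mean of both and 0.63 at that level, and 12 instead of 19 members were lower against the other wild type. At a log2 difference of at least 2, the circZbtb20 knockout had 10 higher and 3 lower, the Nr4a1 knockout 9 and 9, and the Nr4a1 wild type 7 and 0. Shares of all genes at that size are not given here, so these counts have no background and are not a result about the members. The cause of the shifts in counts and medians was not tested. With both wild types as 1 group, limma at its adjusted p called 0 and 0 in the circZbtb20 knockout, where 24 members had an unadjusted p under 0.05, and 9 and 5 in the Nr4a1 knockout. Against the other wild type the sign turned for Hspa9 (0.42) and Hspe1 (-0.49) in the circZbtb20 knockout, and for Dnajb1 (2.41), Hsp90aa1 (0.55), Hspe1 (1.44), Hsph1 (0.72) and Dnajb4 (0.18) in the Nr4a1 knockout. Against the mean of both it turned there for Dnajb1 (0.445) and Hspe1 (0.215). Neither normalization turned the sign of a counted named member. Values near the array medians limit what can be said of the low members.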
